A study of Mus musculus with 10 samples.

Results

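Genes for the enzymes that add or remove methyl and acetyl groups on histones were examined for DNA methylation at their ends in mouse testis. The list held 54 genes, among them 23 methyltransferase, 13 demethylase, 7 acetylase and 11 deacetylase genes, all chosen by name. Each gene was represented by the cytosines within 1 kb of 1 of its annotated ends (mouse build mm10), taking the end with more covered CpGs and requiring at least 3. By that rule 50 of the 54 genes could be measured, out of 14221 protein-coding genes with a measured end. The libraries were reduced representation bisulfite sequencing of testis DNA, a method that enriches CpG-rich fragments and reads methylated cytosines from their resistance to bisulfite. There were 5 libraries labelled control and 5 labelled arsenic-treated, with an F2 code in the sample descriptions. The labels give neither strain, age nor dose, nor which generation met arsenic, and they leave unsaid whether each library is a separate animal. Whole testis holds germ cells of many stages with Sertoli, Leydig and other somatic cells, and a level is an average over their DNA.

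Histone methyltransferases place methyl groups on lysine or arginine residues of histone tails, and demethylases take them off. Acetylases add acetyl groups to lysines, which loosens packing and is bound by bromodomain proteins, and deacetylases reverse this. Male germ cells depend on these enzymes during meiosis, when Prdm9 marks recombination sites, and during spermiogenesis, when hyperacetylated histones give way to protamines. CpG-rich promoters of such broadly used genes are as a rule free of DNA methylation.

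Depth sets how low a level can be read. Reads over all cytosines of the table totalled 69771871 to 100355708 per library, with a median coverage of 27 to 40 reads per cytosine. Depth differed by group. By library number, 1 to 5, median coverage for control was 36, 29, 35, 27 and 29 reads, and for arsenic 35, 38, 40, 38 and 36. Reads pooled over a member's window ranged from 96 in the thinnest library of Smyd3 to 5781 in the deepest of Sirt1. A window without a methylated read still allows a level of up to 3 reads of its total, which was 0.236% for Crebbp in arsenic library 2 and 3.13% for Smyd3 in control library 2. A read is counted at each cytosine it covers, and neighbouring cytosines share reads. The limits treat these counts as independent, so distinct reads would set higher ones, and they cover counting error only. As a check of the tissue label, genes whose promoters are used by germ cells were all measured (10 of 10) and averaged 20.4% to 23.3% in the control libraries and 15.02% to 22.2% in the arsenic libraries. Genes of somatic testis cells (14 of 18 measured) averaged 23.7% to 25.9% and 23.4% to 26.7%. Maternally imprinted gene ends (6 of 14 measured), which are unmethylated in sperm and partly methylated in somatic cells, averaged 7.22% to 17.3% in the control libraries and 10.1% to 11.9% in the others. DNA methylation at marker genes is not their expression, and the part of cell makeup in the results was not tested. Control libraries 4 and 5 stood apart, with medians over all gene ends of 3.69% and 4.49% against 2.603% to 2.98% in the other 8 libraries.

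The promoters of these genes are rich in CpGs. RefSeq promoters on GRCm38.p6, the assembly behind mm10, were matched for 40 of the 54 members and gave 54 annotated starts, each with 250 bases before and 50 after the start. The members' promoters held a median of 28 CpGs in 300 bases, against 7 over all 32851 promoters, and 33 of the 54 exceeded the upper quartile of 20. Stretches of 250 bases upstream of a start are shown, with each CG in capitals: Prmt1 (chr7:44986421-44986670, minus strand), the member with the smallest p; Kdm7a (chr6:39206774-39207023, minus strand), the most CpG-dense; and 2 starts of Hdac7 (minus strand), the outer one at chr15:97844503-97844752, whose surroundings were methylated, and an inner one at chr15:97831768-97832017, whose surroundings were not.
Prmt1: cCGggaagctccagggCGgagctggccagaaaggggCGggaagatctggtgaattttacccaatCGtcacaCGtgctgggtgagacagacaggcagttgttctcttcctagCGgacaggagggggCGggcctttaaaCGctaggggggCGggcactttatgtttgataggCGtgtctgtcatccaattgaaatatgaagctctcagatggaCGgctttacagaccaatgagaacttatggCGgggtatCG
Kdm7a: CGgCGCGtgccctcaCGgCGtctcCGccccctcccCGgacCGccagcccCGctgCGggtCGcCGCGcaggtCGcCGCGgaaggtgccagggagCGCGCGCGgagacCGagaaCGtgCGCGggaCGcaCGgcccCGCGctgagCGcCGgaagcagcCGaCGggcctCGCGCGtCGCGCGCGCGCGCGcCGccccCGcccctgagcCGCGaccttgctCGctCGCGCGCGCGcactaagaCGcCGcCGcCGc
Hdac7 outer start: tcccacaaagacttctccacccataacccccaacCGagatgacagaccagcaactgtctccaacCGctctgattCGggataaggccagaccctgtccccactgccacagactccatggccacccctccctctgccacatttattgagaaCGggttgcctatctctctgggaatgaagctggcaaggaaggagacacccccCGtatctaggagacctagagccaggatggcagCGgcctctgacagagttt
Hdac7 inner start: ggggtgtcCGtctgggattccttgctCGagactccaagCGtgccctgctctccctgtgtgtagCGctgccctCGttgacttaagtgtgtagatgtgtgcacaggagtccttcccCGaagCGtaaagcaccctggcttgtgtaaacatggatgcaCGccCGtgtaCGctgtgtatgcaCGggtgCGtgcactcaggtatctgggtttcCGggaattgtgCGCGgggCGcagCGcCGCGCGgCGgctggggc

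The stretch of Prmt1 holds 13 CpGs, of which 6 were covered, and these stood at 5.92% in control and 3.85% in arsenic. That of Kdm7a, a demethylase of repressive lysine marks, holds 56 CpGs, of which 47 were covered, at 1.63% and 0.733%. The outer stretch of Hdac7 has 6 CpGs and the inner one 21, and none of these was itself covered. Within 1 kb of the outer start of Hdac7, 11 CpGs had a mean of 88.7% ± 5.27 in the control libraries and 89.2% ± 2.49 in the arsenic libraries (SD, n = 5 each). Within 1 kb of the inner start, 5 CpGs stood at 5.23% ± 10.4 and 2.98% ± 5.78, with control library 4 at 23.7%, and near its other CpG-rich start 12 CpGs stood at 6.74% ± 4.87 and 7.15% ± 2.53. The covered cytosines near the outer start lay 761 to 401 bp upstream of it. Hdac7, a class IIa deacetylase, thereby had methylated surroundings at a CpG-poor start and low-methylated surroundings at CpG-rich starts. The level at the outer start itself was not measured.

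CpG-rich starts were low across the members. Of the annotated starts, 47 from 37 genes had at least 3 covered CpGs within 1 kb, and 45 of them had at least 10 CpGs in their promoter. Of those 45, 40 were below 5%, and the highest was that of Kmt2d at 10.4%. The other 2 were the outer start of Hdac7 and a start of Prdm9, which has 9 CpGs in 300 bases.

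**Figure D1:**
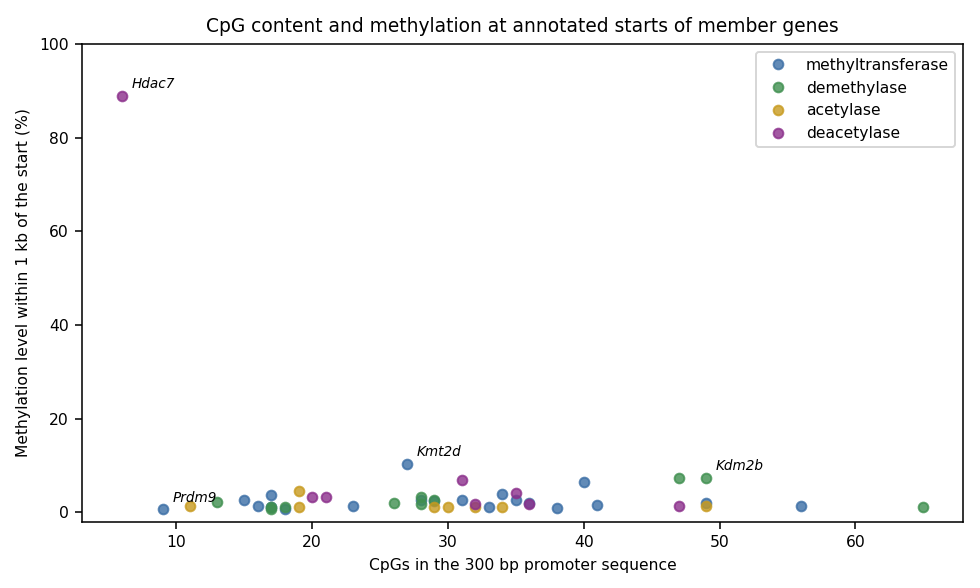
Number of CpGs in the 300-base promoter (x axis) and methylation level within 1 kb of the start as the mean of the control and arsenic means (y axis, percent), 1 point per annotated start with at least 3 covered CpGs, coloured by class. The outer start of Hdac7, with 6 CpGs, lies at 88.9% and all other starts lie at 10.4% or lower.

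Some starts that the end rule passed over were covered as well. The start of Hdac4, which has 32 CpGs in its promoter, stood at 2.19% ± 1.35 in control and 1.57% ± 1.32 in arsenic over 23 CpGs, while the 3' end that represents Hdac4 was methylated at 95.1%. At the inner starts of Kdm2b, a demethylase that brings a Polycomb complex to CpG islands, 11 CpGs gave 10.2%, 7.51%, 9.77%, 13.6% and 23.3% in control libraries 1 to 5. In arsenic libraries 1 to 5 the same starts gave 0.463%, 0.00%, 5.94%, 2.75% and 0.382%. All 5 control values lay above all 5 arsenic values there, with means of 12.9% ± 6.24 and 1.91% ± 2.499. Among all gene-end windows, 0.942% had groups that did not overlap. Within the 300-base promoters of these starts, 5 and 7 covered CpGs stood at 13.7% ± 13.5 and 13.3% ± 13.7 in control. In arsenic they stood at 1.84% ± 2.33 and 1.87% ± 2.115. These starts were singled out after their values were seen and are not windows of the rule, so no test was made. The outer start of Kdm2b stood at 1.96% ± 0.573 and 1.54% ± 1.02.

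Most members were nearly unmethylated at the measured end. The median level over the 50 members was 2.01%, against 3.03% over all 14221 gene ends, and 42 members (84.0%) lay below 5%, against 66.0% of all gene ends. Of 1418 CpGs in the members' windows, 84.0% were below 5% and 39 were above 80%. By class the median was 1.92% for methyltransferases (23 of 23 measured), 1.76% for demethylases (12 of 13), 1.38% for acetylases (7 of 7) and 5.49% for deacetylases (8 of 11). With 500 bp in place of 1 kb on each side, the median over the 45 members still measured was 1.53%. Not measured were Kdm4c, Hdac9 and Hdac11, with 0 covered CpGs at either end, and Hdac5 with 1. A second annotated start of Kdm4c, inside the gene, was covered at 39 CpGs and stood at 5.14% ± 6.14 in control and 1.62% ± 1.18 in arsenic.

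**Figure D2:**
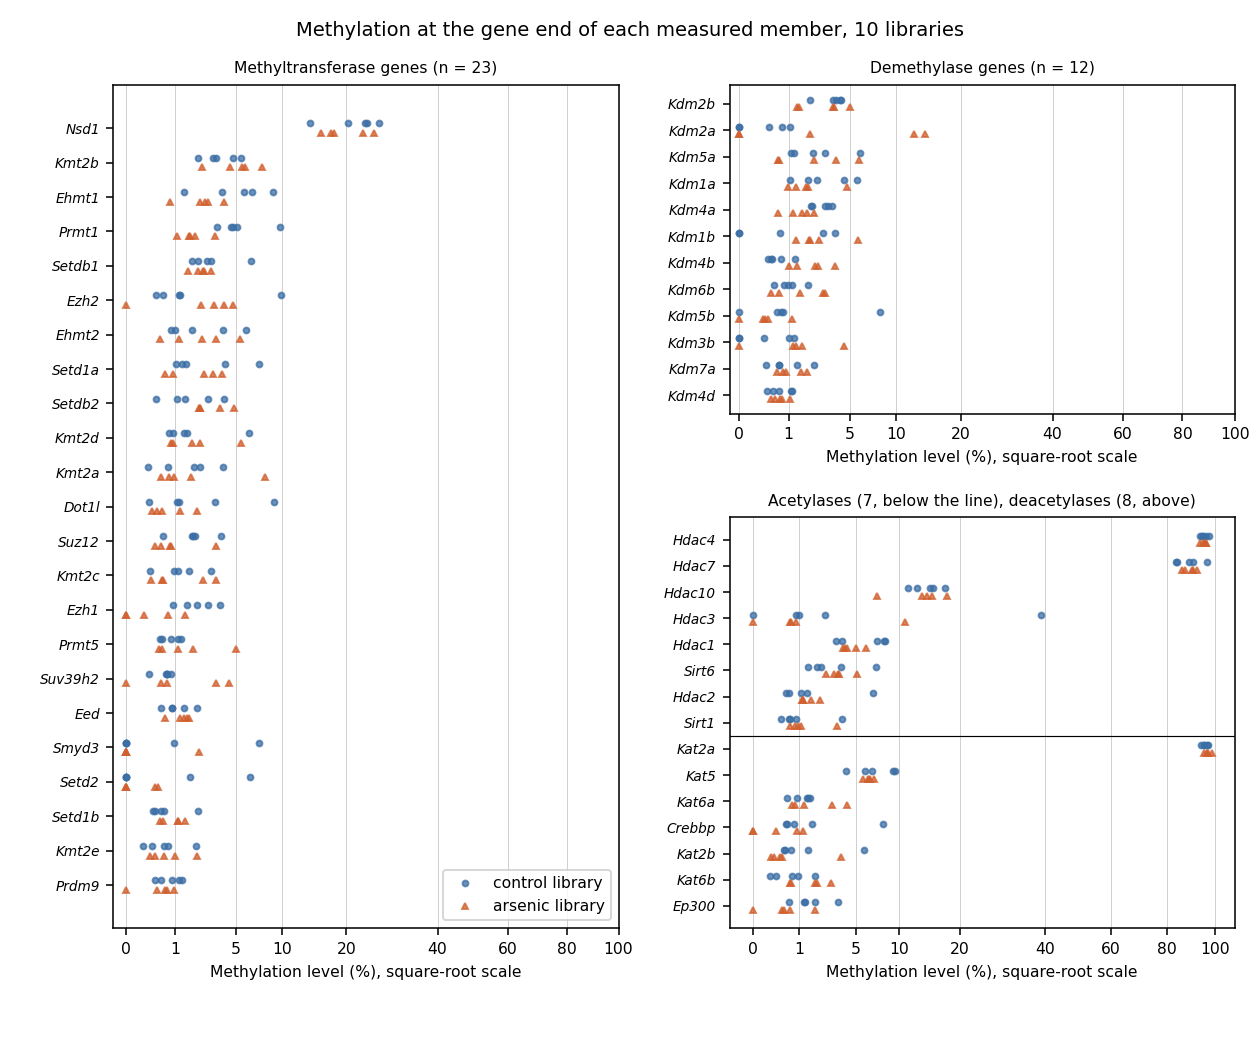
Methylation level of each of the 50 measured members (x axis, percent, square-root scale) in the 5 control libraries (circles) and the 5 arsenic libraries (triangles), 1 row per gene, ordered by mean level within class. Hdac4, Kat2a and Hdac7 lie above 80%, Nsd1 lies between 14.01% and 26.4%, and the other rows lie mostly below 10%, with 1 control library of Hdac3 at 38.9%.

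Among methyltransferase genes the ranges of the substrate groups overlapped. Those for the activating mark on lysine 4 of histone H3 ranged from 0.673% at Prdm9, which is used in meiotic prophase, through 0.853% at Setd1b to 4.47% at Kmt2b. Kmt2e, placed in the class by name, stood at 0.797%. The Polycomb group lay between 1.204% at Eed and 2.73% at Ezh2, with Ezh1 at 1.32% and Suz12 at 1.56% (Eed and Suz12 are partner subunits without catalytic activity of their own). Genes for the heterochromatin mark ran from 1.21% at Suv39h2, a testis-enriched enzyme, to 3.86% at Ehmt1. The arginine methyltransferase genes Prmt5 and Prmt1 stood at 1.31% and 3.72%.

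Nsd1, which methylates lysine 36 of histone H3, was the only methyltransferase above 5%. Its values were 20.3%, 14.01%, 26.4%, 24.0% and 23.6% in control libraries 1 to 5, and 15.7%, 23.1%, 25.4%, 17.8% and 17.4% in arsenic libraries 1 to 5. The groups overlapped, with means of 21.7% ± 4.80 and 19.9% ± 4.14. The level was graded over the window (chr13:55208782-55210782): 15 cytosines outside the gene's lower coordinate stood at 48.7% ± 5.17 and 51.9% ± 3.16, and 34 cytosines inside it at 10.04% ± 4.82 and 8.03% ± 5.47. Kmt2b, next in level, gave 5.46%, 3.35%, 2.16%, 4.68% and 3.13% in control and 7.62%, 5.88%, 2.37%, 5.56% and 4.45% in arsenic, again with overlap.

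Demethylase genes had the narrowest range of the 4 classes, all 12 measured lying between 0.704% at Kdm4d and 3.29% at Kdm2b. Kdm2b gave 4.201%, 3.81%, 3.60%, 4.13% and 2.06% in the control libraries and 3.65%, 1.46%, 3.58%, 5.04% and 1.38% in the arsenic libraries. Its groups overlapped, and control library 5 was the lowest control. The flavin-dependent demethylases Kdm1a and Kdm1b stood at 2.63% and 2.11%, and the Kdm5 pair, which removes the activating lysine 4 mark, at 2.68% for Kdm5a and 1.21% for Kdm5b.

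Acetylase genes were low at their starts. Crebbp and Ep300, the related coactivators of many transcription factors, stood at 1.38% and 1.17%, and the MYST-family genes Kat6a and Kat6b at 1.58% and 1.19%. Kat2a, the acetylase of the SAGA complex, gave 96.6%, 96.2%, 93.9%, 95.1% and 95.1% in control and 96.5%, 96.8%, 95.0%, 96.3% and 98.4% in arsenic, but at its 3' end, which also holds the end of Dhx58. The start of Kat2a had the same number of CpGs (7) and stood at 3.41% ± 2.62 in control and 5.74% ± 3.88 in arsenic, so its class position depends on the choice between ends. Kat5, the acetylase of the NuA4 complex, gave 6.70%, 9.53%, 4.07%, 9.13% and 5.94% in control and 6.85%, 6.21%, 5.68%, 6.34% and 6.41% in arsenic at its 3' end, where Rnaseh2c also ends. Its start, over 14 CpGs, stood at 1.37% ± 0.533 and 0.877% ± 0.822.

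Deacetylase genes ranged from 1.31% at Sirt1 to 95.1% at Hdac4. Hdac4, like Hdac7 a class IIa deacetylase, gave 94.6%, 93.4%, 97.2%, 95.9% and 94.3% in control and 93.4%, 95.9%, 94.8%, 95.6% and 96.0% in arsenic. Hdac7 gave 88.9%, 84.1%, 90.5%, 83.5% and 96.4% in control and 90.1%, 86.1%, 90.6%, 92.1% and 87.2% in arsenic. In both genes the groups overlapped throughout. Hdac10 stood at 14.2% ± 2.34 and 13.5% ± 3.88, and the NAD-dependent Sirt6 at 3.25% ± 2.31 and 3.51% ± 0.970. The higher class median thus rests on 2 methylated windows, that of Hdac4 at its 3' end, and on Hdac1, Hdac3 and Hdac10, at 5.33% to 13.9%, among 8 genes. It falls between Hdac1 at 5.33% and Hdac3 at 5.64%. The mean of Hdac3 was raised by control library 5 at 38.9% and arsenic library 4 at 10.9%. The medians of Hdac3 over libraries were 1% in control and 0.676% in arsenic.

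Levels were lowest just after the start. Of the 50 windows, 32 lay at an annotated start, 4 at a 3' end (Kat2a, Kat5, Hdac4 and Kmt2d) and 14 at an end whose strand no RefSeq promoter gave. Among the 32, the median level in the bin from the start to 250 bp after it was 1.60% in control and 1.08% in arsenic over 20 members. From 250 to 500 bp after the start it was 0.972% and 1.23% over 21 members. From 1000 to 750 bp before the start it was 6.02% and 6.56% over 9 members, 3 of them above 20% in control. Each bin holds other members, so neighbouring bins compare different genes.

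**Figure D3:**
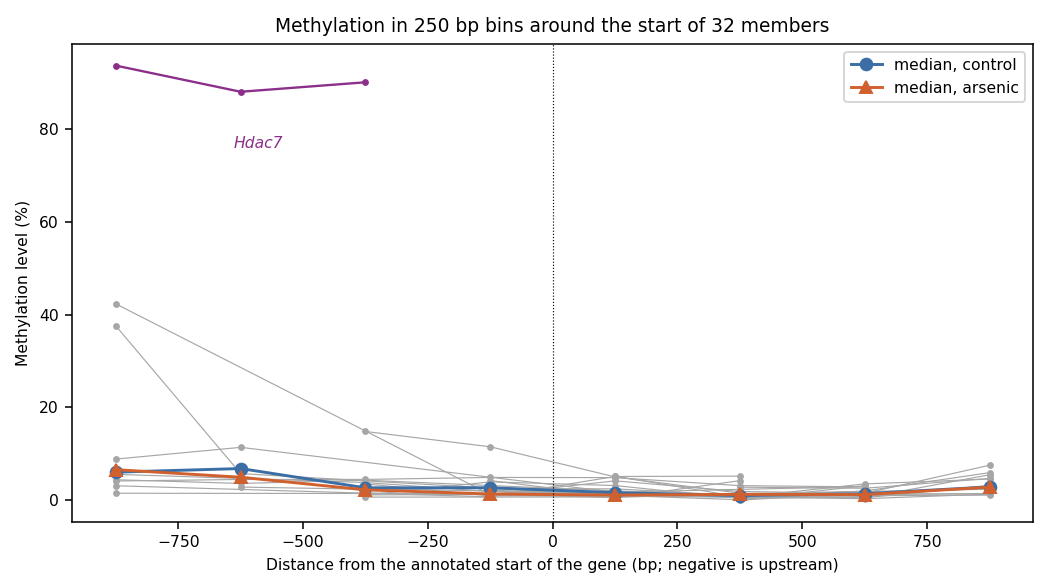
Methylation level (y axis, percent) in 250 bp bins of distance from the annotated start (x axis, bp, negative upstream) for the 32 members measured at their start. Grey and purple lines are single members (means of control and arsenic), and the heavy lines are medians over members. Medians are below 3% from 500 bp upstream to 1000 bp downstream, and Hdac7 alone stays above 80% in its 3 covered bins.

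In most members with both ends measured, the opposite end was more methylated. In 11 members both ends had at least 3 covered CpGs, and in 9 of them the end with fewer CpGs had the higher level, with medians of 2.16% at the end used and 86.6% at the other. At Kdm4a the start stood at 2.16% and the 3' end at 94.1%, and at Setd1a, which trimethylates lysine 4 of histone H3, the values were 2.61% and 95.7%. Ehmt2 was intermediate, with 2.61% at the start and 25.6% at the 3' end. The exceptions were Kat2a, where the tie set the 3' end first, and Hdac10, at 13.9% and 7.01%. With at least 20 reads per cytosine, 6 members had both ends measured and the other end was higher in 5.

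The main comparison asked whether the arsenic libraries differed from the control libraries at these gene ends. No member was called different. Of the 50, 26 were lower and 24 higher in arsenic, or 52.0% lower against 58.5% of all gene ends, and 45 (90.0%) differed by less than 2 percentage points, against 74.7% of all gene ends. The test was a quasi-binomial logistic regression of methylated reads on group, with dispersions squeezed by limma and Benjamini-Hochberg adjustment over all 14221 gene ends. It is called the limma-based model below and is distinct from the alternative test by limma on log2 ratios. A call needed an adjusted p under 0.05 together with 10 percentage points or more, and 0 members and 0 gene ends (0%) met it. A control level under 10% leaves no room for a fall of 10 percentage points, and 42 members had a mean level below 5%. Without the minimum difference, 0 gene ends were called as well. Adjusted p ranged from 0.575 to 0.997 over the members, and the lowest over all gene ends was 0.243. At an unadjusted p under 0.05, 3 members were lower (Prmt1, Ezh1 and Kdm4a; background 4.63% of gene ends) and 1 was higher (Kdm4b; background 1.76%). That is 4 of 50, against 6.39% of all gene ends in either direction. The 2 groups of libraries did not overlap at 1 member, Prmt1, against 0.942% of all gene ends. Limma on log2 ratios called 0 members (0.00703% of gene ends) and gave 5 members an unadjusted p under 0.05. A binomial test on reads, which ignores the spread between libraries, also called 0 members (0.52% of gene ends). It gave 30 members an unadjusted and 28 an adjusted p under 0.05, all with differences below 10 percentage points. For these counts at p under 0.05 in limma and in the binomial test, the shares of all gene ends were not computed.

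The median difference (arsenic minus control) over members was -0.05 percentage points, against -0.29 over all gene ends. By class it was -0.14 for methyltransferases (12 lower, 11 higher), 0.02 for demethylases (6 and 6), -0.78 for acetylases (4 and 3) and -0.27 for deacetylases (4 and 4). Without control libraries 4 and 5 the median over all gene ends moved to 0.10, and those of the classes to 0.04, 0.51, -0.47 and 0.60 in the same order. No class median kept its sign under all alternatives run. The methyltransferase median was also above 0 with at least 10 CpGs (0.056) and without arsenic library 3 (0.037). That of deacetylases was above 0 with 500 bp on each side (0.045), at known starts only (0.19), without control library 5 (0.64) and without arsenic library 1 (0.084). Without control library 2, the acetylase median was 0.19 and the demethylase median -0.085. With each CpG weighted equally the acetylase median was 0.097, and the demethylase median was -0.023 with at least 20 reads per cytosine and -0.042 with at least 10 CpGs. The demethylase median turned to -0.54 when only the 7 demethylase windows at a known start were kept. As levels, the demethylase median per library was 0.696% to 1.195% in the control libraries and 1.30% to 1.81% in the arsenic libraries, without overlap. The other 3 classes overlapped, for instance 1.08% to 1.78% and 0.639% to 2.07% for methyltransferases. These medians over a chosen list are descriptions without a test.

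**Figure D4:**
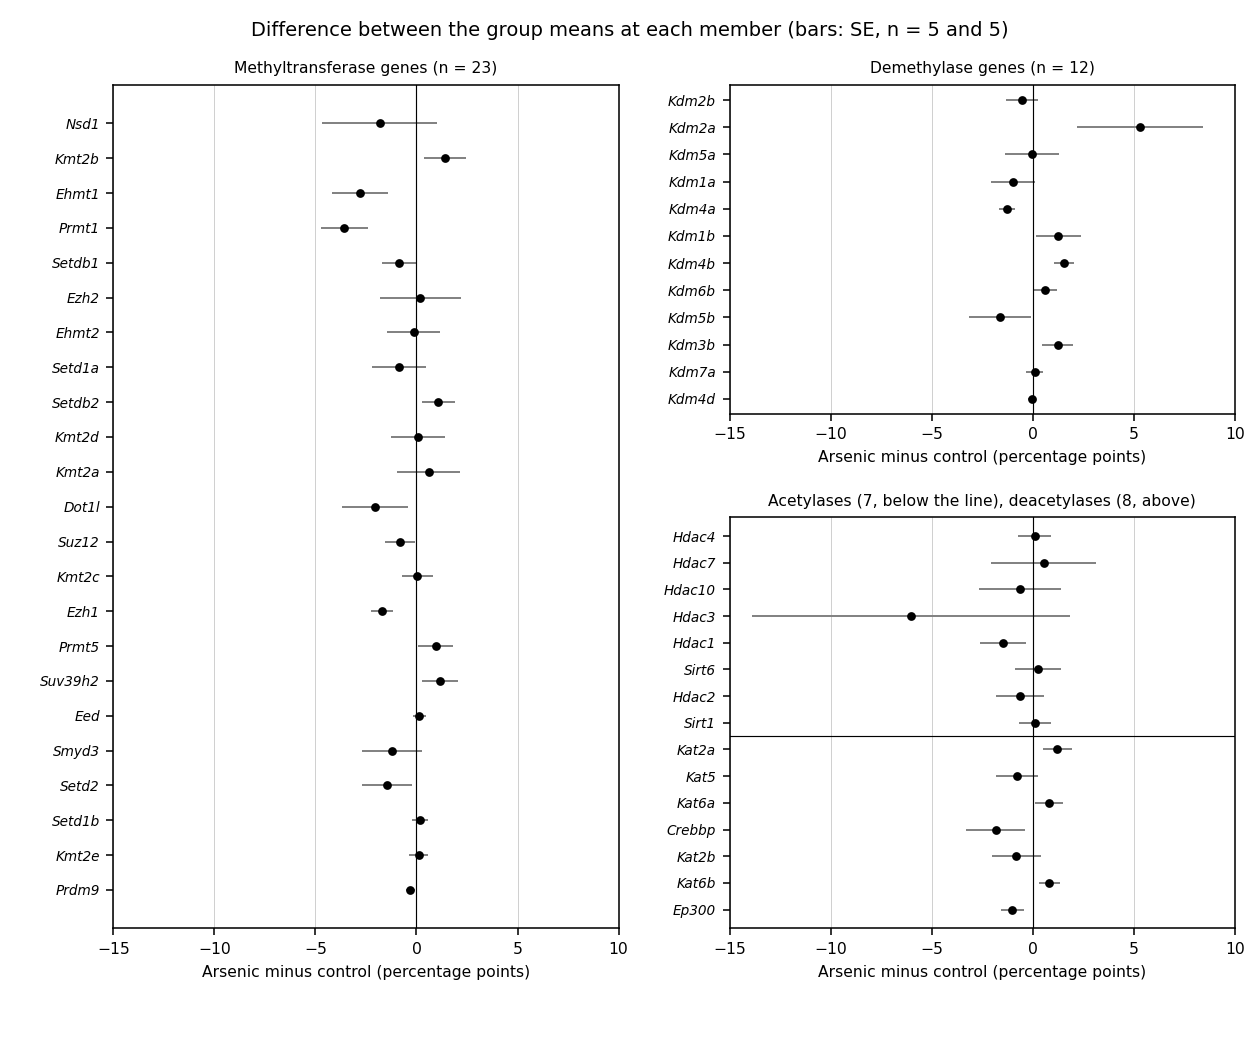
Difference in methylation level between arsenic and control at each of the 50 members (x axis, percentage points; points are differences of group means, bars are SE with n = 5 and 5), 1 row per gene in the order of the plot of levels. Points scatter on either side of 0, Kdm2a is the farthest to the right at 5.30 and Hdac3 the farthest to the left at -6.03, both with wide bars.

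Among methyltransferases, Prmt1, the main enzyme for asymmetric arginine methylation, had the smallest p of all members. In control libraries 1 to 5 its level was 4.50%, 4.71%, 3.42%, 5.09% and 9.81%. In arsenic libraries 1 to 5 it was 1.96%, 1.66%, 1.08%, 1.70% and 3.28%. Every control library was above every arsenic library, by a narrow margin between control library 3 and arsenic library 5. The means were 5.51% ± 2.49 and 1.93% ± 0.817 (SD, n = 5 each), a difference of -3.57 percentage points (SE 1.17; quasi-binomial model with limma, unadjusted p = 0.00274, adjusted p = 0.575). Without control library 5 the difference was -2.49, and without control libraries 4 and 5 it was -2.28. Of the 47 CpGs in the window, 44 were lower in arsenic. The window (chr7:44985420-44987420) spans the start, whose upstream sequence is printed above, and an end of the long noncoding RNA Gm15545. Upstream, 26 cytosines stood at 6.73% ± 3.24 and 2.30% ± 1.54, and 48 cytosines from 207 to 538 bp inside the gene stood at 4.77% ± 3.45 and 1.88% ± 1.87. Within each of these parts the groups overlapped. Upstream, control library 4 was at 2.41% and arsenic library 2 at 4.42%. Inside the gene, control library 3 was at 1.36% and arsenic library 5 at 5.09%.

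Ezh1, a Polycomb methyltransferase of non-dividing cells, gave 0.907%, 2.76%, 2.10%, 1.54% and 3.63% in control and 0.00%, 0.735%, 0.131%, 0.00% and 1.44% in arsenic. The groups overlapped only through control library 1 and arsenic library 5. The difference was -1.72 percentage points (SE 0.549; quasi-binomial model with limma, unadjusted p = 0.0396, adjusted p = 0.767). Most of it lay in 1 of its 8 CpGs, 380 bp inside the gene, at 18.5% in control and 2.58% in arsenic, and without that CpG the difference was -0.49. It was -2.62 with at least 20 reads per cytosine, and with 1 library left out in turn the unadjusted p in the limma-based model was 0.0156 to 0.0882. Ehmt1, which with Ehmt2 forms the dimethylase of lysine 9 of histone H3, gave 5.72%, 6.51%, 1.40%, 8.90% and 3.78% in control and 0.798%, 2.57%, 2.25%, 3.92% and 2.79% in arsenic. Its groups overlapped, and the difference was -2.79 (SE 1.36; adjusted p = 0.777 in the same limma-based model).

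Among demethylases, Kdm4b and Kdm4a, sister enzymes acting on lysines 9 and 36 of histone H3, lay on opposite sides of 0. Kdm4b gave 0.429%, 0.352%, 1.26%, 0.708% and 0.454% in control and 3.75%, 2.32%, 1.36%, 1.01% and 2.52% in arsenic. Only control library 3 and arsenic library 4 crossed. The difference was 1.55 percentage points (SE 0.51; quasi-binomial model with limma, unadjusted p = 0.0116, adjusted p = 0.717), and 31 of its 44 CpGs were higher in arsenic. Kdm4a gave 2.99%, 2.13%, 3.19%, 2.18% and 3.53% in control and 2.31%, 1.19%, 1.87%, 1.59% and 0.632% in arsenic. Arsenic library 1 alone reached into the control range. The difference was -1.29 (SE 0.40; quasi-binomial model with limma, unadjusted p = 0.0435, adjusted p = 0.769), and without the CpG contributing most, at 15.9% and 5.85%, it was -0.74. With at least 20 reads per cytosine it was -0.16 at Kdm4a (unadjusted p = 0.723 in the limma-based model) and 0.82 at Kdm4b (unadjusted p = 0.181). With 1 library left out in turn, the unadjusted p in that limma-based model was 0.0334 to 0.0894 at Kdm4a and 0.00498 to 0.028 at Kdm4b. Whether the differences at the 2 genes differ from each other was not tested.

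Kdm2a, a demethylase of lysine 36 that binds CpG islands, had the largest difference above 0 among members. Its levels were 0.362%, 0.735%, 0.00%, 1.06% and 0.00% in control and 2.05%, 14.1%, 0.00%, 0.00% and 12.5% in arsenic. A level of 0 allows up to 0.787% to 1.24% in these libraries, and more where cytosines share reads. Arsenic libraries 2 and 5 were high and the other 3 lay near the controls, so the difference of 5.30 (SE 3.13; adjusted p = 0.777, quasi-binomial model with limma) was within the spread between libraries. It was 3.20 without arsenic library 2. The window holds 6 CpGs.

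Among acetylases, Crebbp gave 7.98%, 0.508%, 0.556%, 1.62% and 0.784% in control and 0.245%, 0.00%, 1.19%, 0.00% and 0.904% in arsenic. Control library 1 set the difference of -1.82 (SE 1.46; adjusted p = 0.788, quasi-binomial model with limma), which was -0.40 without it. That library's methylated reads lay mostly in 16 cytosines from 389 to 258 bp upstream of the start, at 10.9%, where 3 of the 5 arsenic libraries had 0.00%. Ep300 gave 3.42%, 1.24%, 1.80%, 0.635% and 1.27% in control and 1.81%, 0.399%, 0.00%, 0.647% and 0.457% in arsenic, a difference of -1.01 (SE 0.564; adjusted p = 0.790 in that model), or -0.57 without control library 1. Kat6b gave 0.247%, 1.83%, 0.968%, 0.136% and 0.727% in control and 2.88%, 0.695%, 0.644%, 1.94% and 1.81% in arsenic, a difference of 0.81 (SE 0.518; adjusted p = 0.847 in that model). At Kat6b it was 0.49 without arsenic library 1 and 0.53 without the CpG contributing most. The groups overlapped at all 3 genes.

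Among deacetylases, Hdac3, the catalytic subunit of the NCoR and SMRT corepressor complexes, had the largest difference below 0 among members, and it came from 1 library. Its control levels were 0.00%, 0.893%, 1%, 2.44% and 38.9%, and its arsenic levels 0.654%, 0.676%, 0.00%, 10.9% and 0.893%. The difference of -6.03 (SE 7.86; adjusted p = 0.830, quasi-binomial model with limma) became 1.54 without control library 5. Weighted by reads, as for a call, the Hdac3 difference was -9.97 percentage points. The window also holds an end of Rell2, and its 14 cytosines all lie outside the end of Hdac3. Hdac1 and Hdac2, partners in the Sin3, NuRD and CoREST complexes, differed by -1.48 (SE 1.15; adjusted p = 0.875, limma-based model) and -0.63 (SE 1.197; adjusted p = 0.925). Hdac1 gave 7.19%, 3.72%, 8.01%, 3.23% and 8.22% in control and 5.995%, 3.80%, 4.01%, 4.16% and 5.01% in arsenic, the latter within the control range. Its difference was -0.94 without control library 5 and -0.44 with each CpG weighted equally. Hdac2 gave 1.39%, 1.09%, 0.509%, 0.630% and 6.76% in control and 1.16%, 1.61%, 1.19%, 2.13% and 1.15% in arsenic, and its difference was 0.54 without control library 5, -1.50 with at least 20 reads per cytosine, -0.10 with each CpG weighted equally, -0.39 without the CpG contributing most and 0 with 500 bp on each side.

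None of the 1972 cytosines in the windows was called (0% of all 1988759 cytosines called). At an unadjusted p under 0.05, 101 were lower (background 4.05% of all cytosines) and 57 higher (background 3.06%), together 8.01% against 7.11%. The groups did not overlap at 3 of them, against 0.528% of all cytosines. The binomial test on reads called 40 (2.03%), against 4.14% of all cytosines. In the quasi-binomial model, the share at an unadjusted p under 0.05 was 10.5% for methyltransferases, 7.13% for demethylases, 5.63% for acetylases and 3.10% for deacetylases. Neighbouring cytosines share reads and are not independent. The largest counts were at Kmt2b (6 lower, 19 higher), Prmt1 (20 lower) and Dot1l (17 lower). At Dot1l, the methyltransferase of lysine 79 of histone H3, all 17 lay among 31 cytosines from 116 bp upstream to 37 bp inside the gene. There control library 5 stood at 14.8% and control library 4 at 4.99%, the other controls at 0.354% to 1.48% and the arsenic libraries at 0.2996% to 0.770%.

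**Figure D5:**
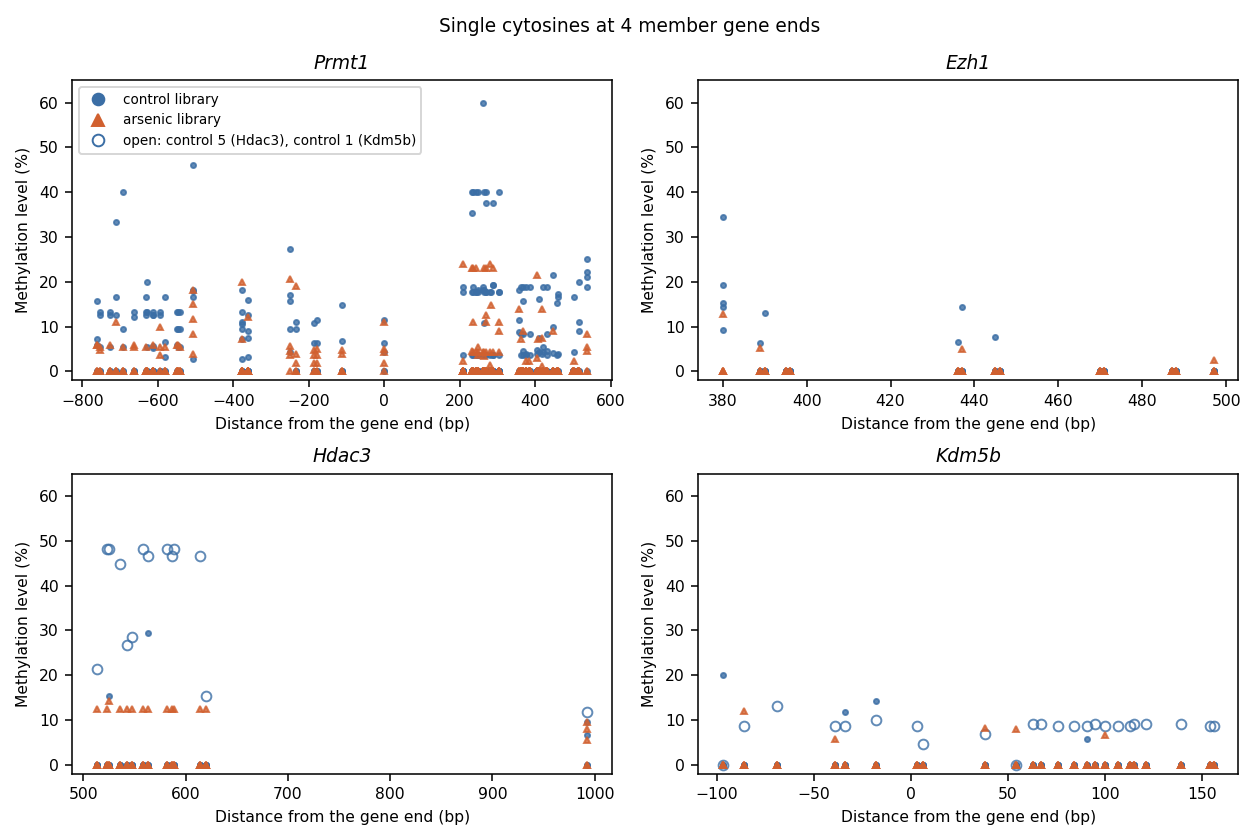
Methylation level of single cytosines (y axis, percent) by distance from the gene end (x axis, bp, negative upstream of the start for Prmt1, Ezh1 and Kdm5b, and outside the gene at positive values for Hdac3) in the control (circles) and arsenic (triangles) libraries. Prmt1 has control libraries above 10% along the whole window, Ezh1 mainly at 1 CpG, and in Hdac3 and Kdm5b the open circles of 1 control library run at a near constant level over many cytosines.

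The spread between libraries was itself uneven. The control SD exceeded the arsenic SD at 33 of 50 members (66.0%), against 59.3% of all gene ends. Median coverage at control numbers 2, 4 and 5 (29, 27 and 29 reads) was below that of every arsenic library. Whether read depth had a part in the spread was not tested. Control library 5 was the highest of the 10 at 16 members (32%), among them Prmt1, Hdac3, Dot1l and Sirt6, against 20.9% of all gene ends. Over members below 20%, the mean level was 3.76% in control library 5 and 1.71% to 2.78% in the other 9. Without that library the difference was -1.36 at Ezh1 and -1.11 at Kdm4a, and for Prmt1, Hdac1, Hdac2 and Hdac3 it is given above. It was not computed for Dot1l or Sirt6.

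Other genes of the same pathways were read in the same way. Of 37 other writers and erasers, 31 were measured, 25 lower and 6 higher in arsenic (80.6% lower, against 58.5% of all gene ends). None was called (0% of all gene ends), and at an unadjusted p under 0.05 there were 2 lower (background 4.63%) and 0 higher (background 1.76%). Kdm3a, a demethylase of lysine 9 required for sperm chromatin packaging, gave 0.3003%, 6.95%, 5.95%, 6.58% and 10.6% in control and 0.211%, 0.148%, 0.551%, 0.588% and 0.847% in arsenic. Control library 1 alone lay among the arsenic libraries, and the difference was -5.60 (SE 1.66; quasi-binomial model with limma, unadjusted p = 0.000112, adjusted p = 0.399). Prmt7, another arginine methyltransferase, gave 9.81%, 14.04%, 0.297%, 0.101% and 12.5% in control and 0.0645%, 2.35%, 0.0518%, 0.474% and 3.27% in arsenic (difference -6.10, adjusted p = 0.717 in the limma-based model). Of 28 partner subunits and readers, 24 were measured, 17 lower and 7 higher (70.8% lower, against 58.5% of all gene ends). None was called, and at an unadjusted p under 0.05 there were 3 lower (background 4.63%) and 1 higher (background 1.76%). The corepressor scaffolds Sin3b and Sin3a were measured at different ends, Sin3b at its 3' end and Sin3a at its start. They stood at 33.4% ± 2.64 and 3.51% ± 1.11 in control and at 27.6% ± 3.01 and 1.96% ± 0.535 in arsenic. Adjusted p was 0.597 and 0.740 in the limma-based model. At Sin3b the groups overlapped, with control library 2 at 29.05% and arsenic library 2 at 31.69%. Sin3a was the gene of that list whose groups did not overlap, 1 of 24 against 0.942% of all gene ends.

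A window can belong to more than 1 gene. Of the 50 windows, 24 hold part of another gene and 14 hold an end of another protein-coding gene, among them Kdm5a with Ccdc77, Suv39h2 with Dclre1c, Kmt2d at its 3' end with Prkag1, and Kmt2b with Zbtb32. At such ends a level cannot be assigned to 1 of the 2 genes.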

How the data were processed

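DNA methylation was measured in testis DNA of 5 control and 5 arsenic libraries, grouped and numbered by their titles. Per the submitters' processing notes, the tools were methylKit 1.22.0, Bismark 0.22.3 and Trim Galore 0.6.5 and the build was mm10, with settings not stated in the labels. The deposited table holds raw read counts per cytosine and library (all, methylated and unmethylated), at least 10 in each library, not normalised. Counts were pooled over each gene-end window (1000 bp on each side, at least 3 CpGs; the lower coordinate on a tie); gene coordinates came from the RefSeq table of GRCm38.p6 and strands from RefSeq promoters. Levels are means ± SD over libraries, and a call used the read-weighted difference. P-values of the quasi-binomial model and of limma set the group difference against the spread between libraries, which may be technical.

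The members and gene lists were chosen with earlier results of these data known. Full statistics are given for the 3 measured members of each class with the smallest p, all 10 values also for the 2 highest in level, and the 2 genes with the smallest p of each other list. Alternatives were another coverage minimum, window, CpG minimum, test and set of libraries. The model was tested on simulated data. Computations used R 4.3.3 with limma 3.58.1 and the data.table package (version 1.17.8), and Python 3.11.15 with pandas 2.3.3, numpy 2.4.6 and matplotlib 3.10.9.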

Additional observations from a re-analysis of the deposited data

Results flagged for a closer look

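In 22 of the 100 groups of 5 libraries at the members, 1 library stood apart by Dixon's criterion (its gap to the nearest library over the group's range above 0.71). Chance flags about 1 in 20 normally distributed groups, but 15.3% of the groups at all gene ends met the criterion, and 17.7% of those below 20%. The library apart was the highest in 21 of the 22 and a control library in 14, among them control library 5 in 7. A link of these flags to read depth was not tested.

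In control library 5 these were Hdac3 at 38.9%, Prmt1 at 9.81%, Hdac2 at 6.76%, Setd2 at 6.37%, Kmt2d at 6.27% and Sirt1 at 3.69%, and Kdm2b at 2.06% as the lowest. In control library 1 they were Ezh2 at 9.91%, Kdm5b at 8.04% and Crebbp at 7.98%. Control library 2 stood apart at Kat2b with 5.76% and at Setd1b with 2.12%, and control library 4 at Smyd3 with 7.34% and at Setdb1 with 6.40%.

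Among the arsenic libraries, library 4 stood apart at Hdac3 with 10.9% and at Kmt2a with 8.01%, and library 1 at Kdm1b with 5.73% and at Kdm1a with 4.75%. Library 2 did so at Kat2b with 3.64%, library 5 at Sirt1 with 3.31%, and library 3 at Suz12 with 3.30% and at Smyd3 with 2.18%.

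Several of these levels came from one repeated count along a stretch of cytosines. At Hdac3, control library 5 had 14 methylated reads at 8 of the 14 cytosines, and arsenic library 4 had 2 at 13 of them. At Kdm5b, control library 1 had 2 methylated reads at 19 of 24 cytosines, and at Ezh2 the same library had 4 at 10 of 23. Of the methylated counts above 0, 67.6% were even in the members' windows, against 57.7% over all cytosines. Whether such reads come from few original molecules, or were counted in pairs, was not tested.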

How the results depend on the processing

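No member was called in any alternative run. All but the run without a minimum difference kept the 10 percentage points, which a control level under 10% cannot lose. Of 228 values for named genes 223 kept their direction, 1 was 0 (Hdac2 with 500 bp) and 4 reversed. Of the 228, 24 carry no test. The reversed values were Hdac3, at 1.99 without control libraries 4 and 5 and 1.54 without control library 5, and Hdac2, at 0.45 and 0.54; leaving out 1 library in turn gave -8.20 to 1.54 for Hdac3 and -1.02 to 0.54 for Hdac2. Over all gene ends, limma called 1 and the binomial test on reads 74. The members with an unadjusted p under 0.05 numbered 2 with at least 10 CpGs, 30 in the binomial test on reads and 2 to 6 when libraries were left out in turn. Shares of all gene ends at that p were not computed for the alternatives. The binomial test called 40 cytosines in the windows (2.03%, against 4.14% of all cytosines), with 29.7% at an unadjusted p under 0.05 against 26.1% of all cytosines. The methyltransferase median difference was -0.57 at a coverage of at least 20. The demethylase median difference was 0.23 with 500 bp on each side, 0.51 without control libraries 4 and 5 and -0.54 at known starts only. Leaving out 1 library gave -0.46 to 0.037 for methyltransferases, -0.085 to 0.36 for demethylases, -0.98 to 0.19 for acetylases and -0.57 to 0.64 for deacetylases. The median level over members was 1.53% with 500 bp and 1.67% to 2.07% with 1 library left out. The other end was higher in 5 of 6 members at a coverage of at least 20 and in 5 of 5 with 500 bp, both chosen after seeing the data. The causes of these shifts were not tested.

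Same-numbered libraries of the 2 groups correlated at -0.03 to 0.02 in their deviations over 14221 gene ends, and 0 of 5 correlated best with their own number. The labels do not say how the numbers were given. Such correlations cannot show whether same-numbered libraries shared handling or origin. With a replicate block, 0 members were called and 6 had an unadjusted p under 0.05.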
